A study of Schmidtea mediterranea with 24 samples.

Results

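A set of 112 transcripts, of 28742 counted in planarian tails, was expressed without injection and stood at higher levels after any injection, with vesicles or without. Levels are given as CPM, the count of a transcript divided by all counts of its library and multiplied by 1000000. Members were selected on these measured CPM values. Transcripts entered the set if their mean was from 1 to under 500 CPM in uninjected tails, if the mean of the 8 injected libraries was at least 1.8 times that mean, and if the lowest injected library lay above the highest uninjected one. Transcripts whose vesicle-injected and buffer-injected ranges did not overlap were left out. The rule therefore uses the contrast of injected with uninjected tails, and values from that contrast describe the set and support nothing.

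Planarians are flatworms that rebuild lost tissue from dividing stem cells, the neoblasts. Piercing or cutting the body is known to start a wound response, in which early genes switch on within hours in epidermis, muscle and neoblasts near the wound and later transcripts follow as cells divide and differentiate. Extracellular vesicles (EVs) are membrane-bound particles that cells release, and they can carry RNA and protein to other cells.

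RNA was sequenced from tails of asexual *Schmidtea mediterranea* of the wild-type clonal line CIW4, starved for 7 days, in 3 groups of 4 libraries, each from 5 pooled tail fragments without about 10% at the posterior tip. EV-injected tails received vesicles from tissue fragments 12 hours after amputation together with fluorescent dextran, at about the vesicles of 1 animal per recipient. Buffer-injected tails received buffer and the same dextran, and uninjected tails received neither. Injected animals with little dextran after 1 hour were removed and the rest were sampled 24 hours after injection, so the needle, the fluid, the dextran and that selection cannot be told apart in any contrast with uninjected tails.

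The files name transcripts only by identifiers beginning dd_Smed_v6 and pair none with a gene, so no role or cell type is given to any member, and the tail tissue could not be checked by markers. In bulk tissue, more cells of a type and more RNA per cell cannot be told apart. Libraries held 19621187 to 30903133 counts. The 10 most abundant transcripts of each library took 8.81% to 8.92% of counts in uninjected and 7.32% to 7.74% in injected libraries, and the part of this difference in CPM values was not tested.

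Without injection the set held 0.499% ± 0.0176 of all counts (SD, n = 4). It held 1.33% ± 0.0577 after buffer and 1.28% ± 0.0674 after EVs (SD, n = 4 each). The lowest injected library was EV-injected replicate 2 at 1.21% and the highest was buffer-injected replicate 3 at 1.39%. The 5 most abundant members held 32.4% of the set's CPM after injection and 37.1% of its rise, so most of the rise was spread over the other members. The same rule turned downward took 84 transcripts, and with an uninjected mean under 1 CPM it took 86. Members were 0.660% of the 16965 transcripts with an uninjected mean in the rule's range.

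**Figure D1:**
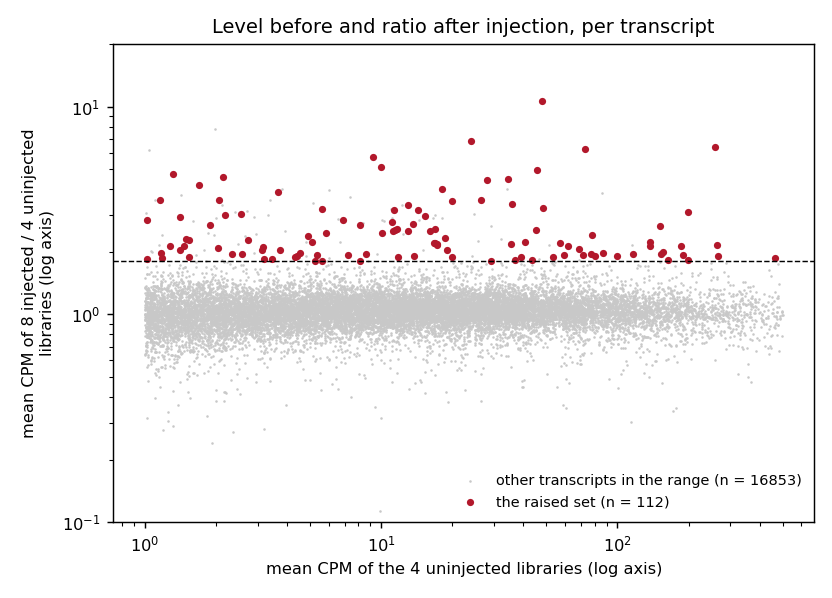
Mean CPM of the 4 uninjected libraries (horizontal, log axis) against the mean of the 8 injected over the 4 uninjected libraries (vertical, log axis) for transcripts in the rule's range. Red points are the 112 members and the dashed line is the 1.8-fold minimum; members occur at all levels from 1.02 to 466 CPM, and grey points above the line had overlapping injected and uninjected libraries or separate EV and buffer ranges.

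Ratios of the injected to the uninjected mean ran from 1.8 to 10.6, with a median of 2.20. There were 13 members at 4 or more, 14 from 3 to under 4, 46 from 2 to under 3 and 39 under 2. The 5 members just inside the minimum had ratios of 1.8 to 1.82, and the 5 transcripts just outside it that met every other condition had 1.78 to 1.8. Against a minimum of 1.5-fold the set would have 303 transcripts and against 2-fold 73, so its size follows the minimum chosen.

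The transcript with the highest ratio was dd_Smed_v6_1837_0_1, of 694 bases. It had 44.3, 56.1, 34.7 and 57.0 CPM in uninjected replicates 1 to 4. It had 524, 480, 478 and 557 CPM in the buffer-injected and 525, 548, 442 and 530 CPM in the EV-injected libraries. Every injected library lay at least 7.75 times above the highest uninjected one. The injected groups overlapped, as the rule asks of every member. Its fitted log2 fold change was 3.37 ± 0.13 after buffer and 3.36 ± 0.13 after EVs against uninjected tails (SE, edgeR), given as a description.

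The next, dd_Smed_v6_6952_0_1, of 1976 bases, had 25.9, 25.2, 23.0 and 21.6 CPM in uninjected libraries. After buffer it had 179, 155, 180 and 139 CPM, and after EVs 173, 146, 148 and 181 CPM. Its ratio was 6.79, and log2 fold changes were 2.73 ± 0.09 after buffer and 2.70 ± 0.09 after EVs (SE, edgeR). Its lowest injected library lay 5.38 times above the highest uninjected one, where the rule asks only that it lie above. The overlap of its injected groups is again set by the rule.

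The third, of 606 bases, was the most abundant member after injection. Its uninjected libraries had 228, 304, 230 and 276 CPM. It reached 1749, 1516, 1650 and 1849 CPM after buffer and 1672, 1704, 1475 and 1671 CPM after EVs. Per kilobase of transcript it was also the highest member, at 428 CPM per kilobase before and 2740 after injection. The other four of the 5 members highest per kilobase in uninjected tails, at 224 to 366 CPM per kilobase, had ratios of only 1.86 to 2.16.

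The remaining 10 members at 4-fold or more ranged in uninjected mean from 1.32 to 72.6 CPM and in length from 266 to 1730 bases. One of 416 bases rose from a mean of 9.22 to 52.4 CPM and one of 500 bases from 45.6 to 227 CPM. The scarcest, of 870 bases, had 1.31, 0.974, 1.25 and 1.73 CPM in uninjected libraries and 5.15 to 7.30 CPM in injected ones, so a large ratio was not limited to abundant transcripts.

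**Figure D2:**
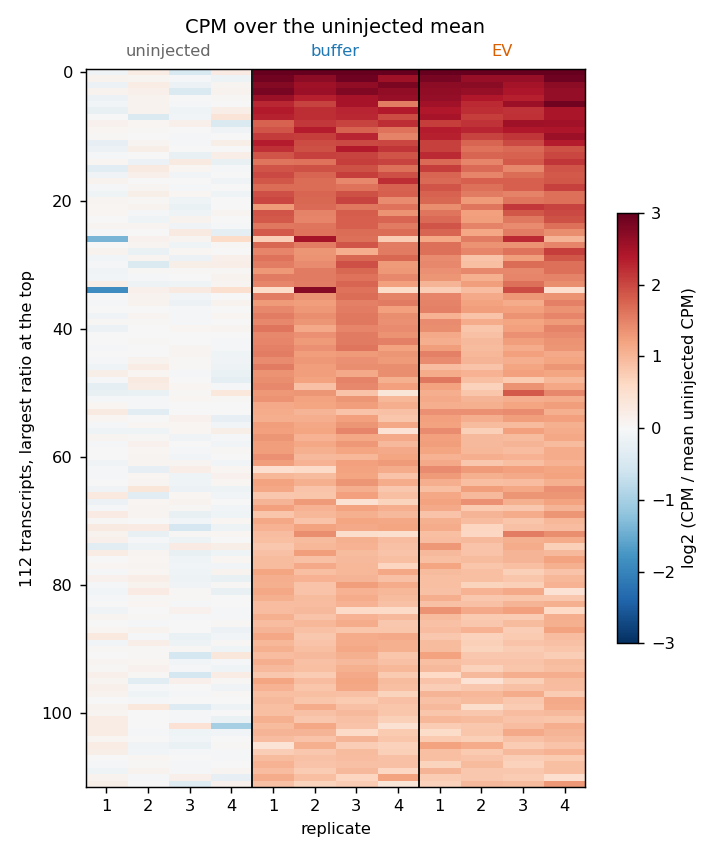
Each row is 1 of the 112 members, with the largest ratio at the top, and each column 1 library; colour gives log2 of CPM over the uninjected mean. All 8 injected columns are red throughout by the rule; the blue cells in uninjected replicate 1 include dd_Smed_v6_681_0_1 at 2.23 CPM.

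By level, 33 members had an uninjected mean under 5 CPM, 36 from 5 to under 20, 28 from 20 to under 100 and 15 from 100 upward. Median ratios in these classes were 2.12, 2.51, 2.16 and 1.99. The median uninjected level was 13.7 CPM in the set and 11.9 CPM over the rule's range. Per kilobase the medians were 11.1 and 9.07 CPM per kilobase. Members were 215 to 5867 bases long with a median of 1179, against 1284 over the range. Transcripts under 500 bases made up 12.5% of the set and 12.0% of the range, and those over 3000 bases 6.25% and 10.3%. The 112 members came from 112 different first numbers of the identifier, and 1 of them shared that number with another transcript of the table, so no member shared it with another member. Reads shared between similar transcripts remain uncertain, since their treatment is not given in the sources used here.

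The separation of single libraries differed widely between members. The lowest injected library over the highest uninjected one had a median of 1.70 and ran from 1.00 to 7.75, and it was at least 1.5 for 78 of 112 members. The smallest gap belonged to dd_Smed_v6_681_0_1, at 11.5 against 11.5 CPM.

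Buffer against no injection compares the whole procedure without EVs with uninjected tails. All 112 members were called higher with edgeR's quasi-likelihood test (Benjamini-Hochberg adjusted p under 0.05 over 21149 transcripts), where 22.0% of all transcripts were called and 12.4% were called higher. The rule used this contrast, so the count is a description. The median log2 fold change was 1.13 over the members, with a range of 0.65 to 3.37, against 0.00 over all transcripts. With EVs against uninjected tails, 111 of 112 were called higher, where 25.8% of all transcripts were called and 13.9% were called higher, with a median of 1.09 and a range of 0.66 to 3.36. The exception was dd_Smed_v6_681_0_1, with an edgeR adjusted p of 0.105. Both contrasts share the 4 uninjected libraries, so their likeness is not a separate result. By the authors' deposited table, the same threshold took 112 members after buffer and 111 after EVs. Of all 17755 transcripts in that table, the threshold took 4694 after buffer and 5499 after EVs.

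EVs against buffer compares injections with and without the vesicles. The rule used this contrast as well, since it removed 20 transcripts with separate ranges, 11 of them higher with EVs and 9 higher with buffer. Separate ranges thus occurred in 15.2% of the 132 raised transcripts and in 5.53% of those in the rule's range. Among the members left, edgeR called 0 of 112, where it called 0.0993% of all transcripts. At an unadjusted p under 0.05 there were 45 members, 34 of them lower and 11 higher with EVs, where 10.1% of all transcripts passed, 5.69% lower and 4.37% higher. DESeq2 called 4 members, where it called 148 of all 21149 transcripts, and gave 37 of the 112 no adjusted p. By the authors' deposited table, the adjusted threshold took 0 of 112 members, where it took 24 of 17755 transcripts.

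Members were on balance slightly lower with EVs than with buffer. The log2 fold change was below 0 for 76 of 112 members, where this held for 51.1% of all transcripts. Its median was −0.08, with quartiles of −0.19 and 0.04, against 0.00 over all transcripts. By CPM alone, without the scaling of edgeR, 72 members had a lower mean with EVs, where 44.7% of tested transcripts did. By ratio to uninjected tails, the fitted level was lower with EVs for 8 of 13 members at 4-fold or more, 11 of 14 from 3-fold, 35 of 46 from 2-fold and 22 of 39 under 2-fold, with medians of −0.02, −0.07, −0.15 and −0.06. By CPM, the median ratio to uninjected tails was 2.25 after buffer and 2.21 after EVs, each taken over the members separately. Taken per member, the log2 ratio of the EV to the buffer mean CPM had a median of −0.06, against 0.02 over the rule's range. The rule asks for a rise of at least 1.8-fold and for overlapping EV and buffer ranges. A comparison of the size of the shift with that of the rise is therefore set in part by the rule. Both ends of the 95% interval of the EV to buffer change were smaller than 1.5-fold for 73.6% of all transcripts tested. Among members this held for 101 of 112, or 90.2%. The rule removed transcripts with separate EV and buffer ranges and those under 1 CPM, so this count describes the set and supports nothing about the size of an EV effect. A missing call does not show that both injections act alike.

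The part of single libraries in this shift can be read from their values. The median over members of log2 CPM relative to the uninjected mean was 1.24, 1.17, 1.24 and 1.14 in buffer-injected replicates 1 to 4 and 1.18, 0.98, 1.16 and 1.18 in EV-injected replicates 1 to 4. Over the rule's range the same median was 0.05, 0.05, 0.02 and 0.03 in the buffer-injected and 0.05, 0.03, 0.05 and 0.08 in the EV-injected libraries. EV-injected replicate 2 had the lowest median over members and held the lowest injected value of 40 of 112 members. Without it, 68 members were lower with EVs and the median was −0.05, and without buffer-injected replicate 3 there were 69, with a median of −0.07. Of all transcripts tested, 50.8% and 51.0% were lower in these fits. Leaving out any other library gave 73 to 79, where 49.9% to 51.4% of all transcripts were lower. EV-injected replicate 1 bore on the size too, with a median of −0.12 without it.

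**Figure D3:**
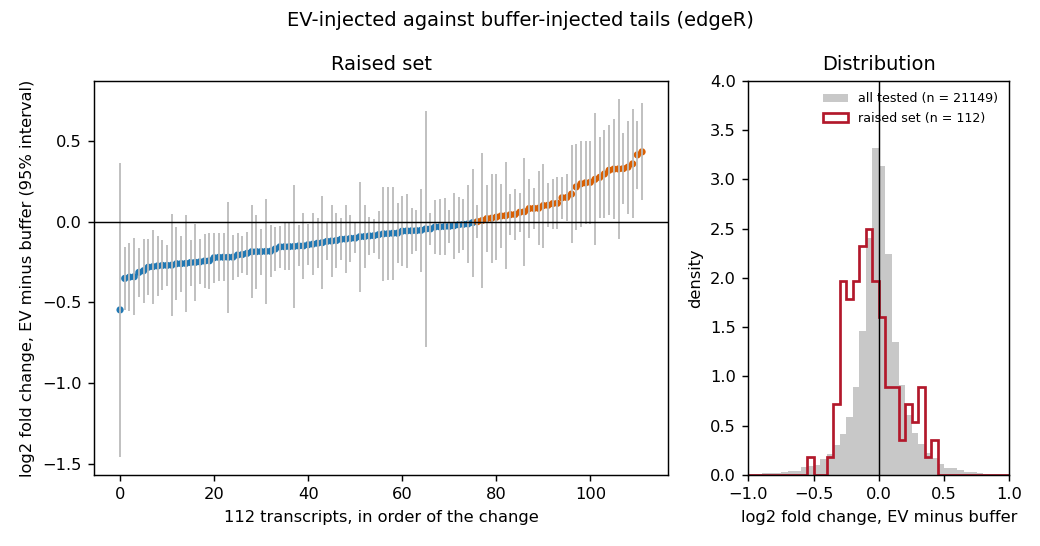
Left, fitted log2 fold change of EV-injected over buffer-injected tails for the 112 members in rising order, with 95% intervals; 76 are below 0 (blue) and 36 above (orange). Right, the distribution of the same change over the members (red line) and all 21149 tested transcripts (grey), as densities.

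The largest rise with EVs over buffer among members was in dd_Smed_v6_9273_0_1, of 1670 bases. It had 47.6, 40.5, 55.6 and 28.8 CPM after buffer and 56.8, 47.2, 58.8 and 74.4 CPM after EVs, with 9.43 to 10.6 CPM in uninjected libraries. The injected ranges overlapped, as the rule asks, and buffer-injected replicate 4 was lowest and EV-injected replicate 4 highest. The fitted difference was 0.43 ± 0.14 on the log2 scale (SE), with an edgeR adjusted p of 0.292.

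The second, dd_Smed_v6_340_0_1, of 266 bases, had 126, 175, 117 and 107 CPM after buffer and 176, 167, 182 and 183 CPM after EVs, with 31.8 to 35.6 CPM uninjected. Buffer-injected replicate 2 lay within the EV range and the other buffer libraries below it. The fitted difference was 0.42 ± 0.10 (log2, SE), with an edgeR adjusted p of 0.146. Without buffer-injected replicate 2 it was 0.58, with an edgeR adjusted p of 8.52e-05, where all alternatives ran up to 0.338. That library alone gave the overlap by which this transcript stayed in the set. Its removal leaves separate ranges, so the smaller p without it supports nothing.

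At the other end, dd_Smed_v6_10748_0_1, of 1298 bases, had 82.9, 68.2, 93.7 and 79.5 CPM after buffer and 74.7, 56.4, 58.9 and 67.9 CPM after EVs, with 15.9 to 20.5 CPM uninjected. The ranges overlapped only through buffer-injected replicate 2 and EV-injected replicate 1. EVs stood below buffer, with a log2 difference of −0.35 ± 0.09 (SE) and an edgeR adjusted p of 0.178.

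The lowest fitted change, −0.55 ± 0.43 (SE, edgeR adjusted p = 0.728), was that of dd_Smed_v6_681_0_1, of 834 bases, and it rested on 1 library. This transcript had 12.0, 54.4, 25.1 and 11.9 CPM after buffer, 13.6, 15.5, 31.4 and 11.5 CPM after EVs and 2.23, 9.13, 9.80 and 11.5 CPM without injection. Buffer-injected replicate 2 stood 3.33 times above the mean of the other 3, and without it the change was 0.090.

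**Figure D4:**
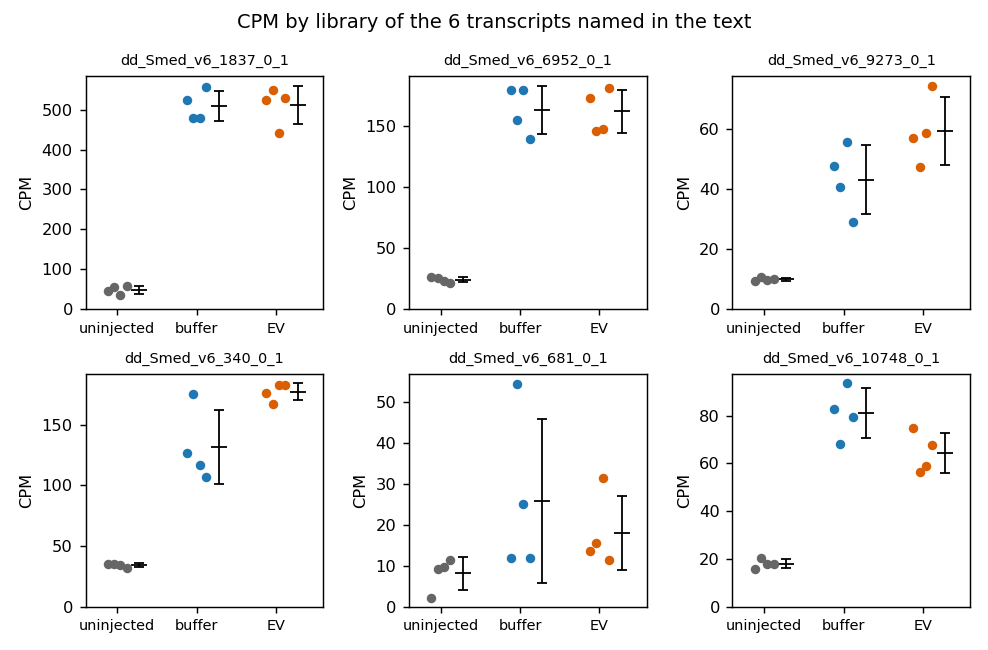
CPM (vertical, from 0) of each of the 12 libraries for the 6 transcripts named in the text, by group, with the mean and SD (n = 4) beside the points. Injected points of dd_Smed_v6_1837_0_1 lie between 442 and 557 CPM, while those of dd_Smed_v6_681_0_1 spread from 11.5 to 54.4 CPM.

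Spread within groups was modest for most members. The median coefficient of variation was 8.31% without injection, 9.29% after buffer and 11.1% after EVs, against 7.52%, 7.76% and 7.84% over the rule's range. In each group 3 members exceeded 30%. The rule acts on this spread, since it asks for injected libraries above the uninjected ones and for EV and buffer ranges that overlap, and these values are a description.

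Members also deviated from their group means together. Deviations were taken as log2(CPM + 0.1) minus the group's mean over the 12 libraries, and so do not hold the differences between groups. The mean Pearson correlation over the 6216 pairs of members was 0.180, against 0.0176 over the rule's range. In all, 156 pairs reached 0.8, and 80 members had at least 1 such partner. Pairs at 0.8 were not counted over the rule's range, so these counts stand without a background. Points of a pair share the 12 libraries and their depth, and these values are a description.

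Average-linkage grouping of the deviations at a correlation distance of 0.5 gave 12 groups of at least 3 members, with 95 members in all. They were formed on these values and carry no test. Letters A to D are given to the groups of 25, 13, 5 and 3 members described here, which had the same members without the pseudocount, while the groups of 18 and 10 members did not. The largest, group A, had 25 members and a mean correlation of 0.642, and held dd_Smed_v6_6952_0_1. Its median deviation was highest in EV-injected replicate 1, at 0.16 on the log2 scale, and lowest in EV-injected replicate 2, at −0.11. Group A had a median length of 1895 bases and 6 of the 7 members over 3000 bases. All 1749 transcripts over 3000 bases in the rule's range had median deviations of 0.02 and 0.00 in those libraries. In uninjected replicate 4 and buffer-injected replicates 1 and 4 they had −0.06, 0.04 and −0.05, where group A had −0.06, 0.06 and −0.06. Signs differed in uninjected replicate 3 and buffer-injected replicates 2 and 3, at 0.04, 0.03 and −0.02 against −0.03, −0.08 and 0.09. They also differed in uninjected replicate 1 and EV-injected replicates 2 and 4, where the long transcripts had 0.0062, 0.0046 and −0.0019. In uninjected replicate 2 and EV-injected replicate 3 signs were alike, at 0.01 and −0.02 against 0.08 and −0.09. Group A was formed on these deviations, and the part of transcript length in them was not tested.

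Group B had 13 members with a median ratio of 3.19, including dd_Smed_v6_10748_0_1. It was low in buffer-injected replicate 2 and EV-injected replicate 2, at −0.18 in each, and high in EV-injected replicate 4, at 0.18. In group A 23 of 25 members and in group B 12 of 13 had a lower fitted level with EVs than with buffer, with median log2 fold changes of −0.14 and −0.18, against 41 of 74 in the remainder of the set. The groups did not all lean one way: in the group of 18 members 9 were lower with EVs, with a median of −0.01. A group of 4 members had 4 lower, with a median of −0.25, and another of 4 had 1, with a median of 0.07. A group of 3 members had 3 lower, with a median of −0.15, and another of 3 had 0, with a median of 0.26. Members of a group were joined because they deviate together, so they are not separate observations.

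Group C had 5 members with a median ratio of 6.28, among them dd_Smed_v6_1837_0_1, the member of 606 bases and one of 703 bases that went from 72.6 to 456 CPM. Uninjected replicate 2 was high at 0.16 and uninjected replicate 3 low at −0.16, and after injection buffer-injected replicate 2 and EV-injected replicate 3 were low, at −0.15 and −0.14. All 5 were lower with EVs than with buffer by the fitted value, with a median of −0.08. Group D, of 3 members with ratios of 1.97 to 3.01, held dd_Smed_v6_681_0_1. It was low in uninjected replicate 1, at −1.15, and high in buffer-injected replicate 2 and EV-injected replicate 3, at 1.06 and 0.74.

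**Figure D5:**
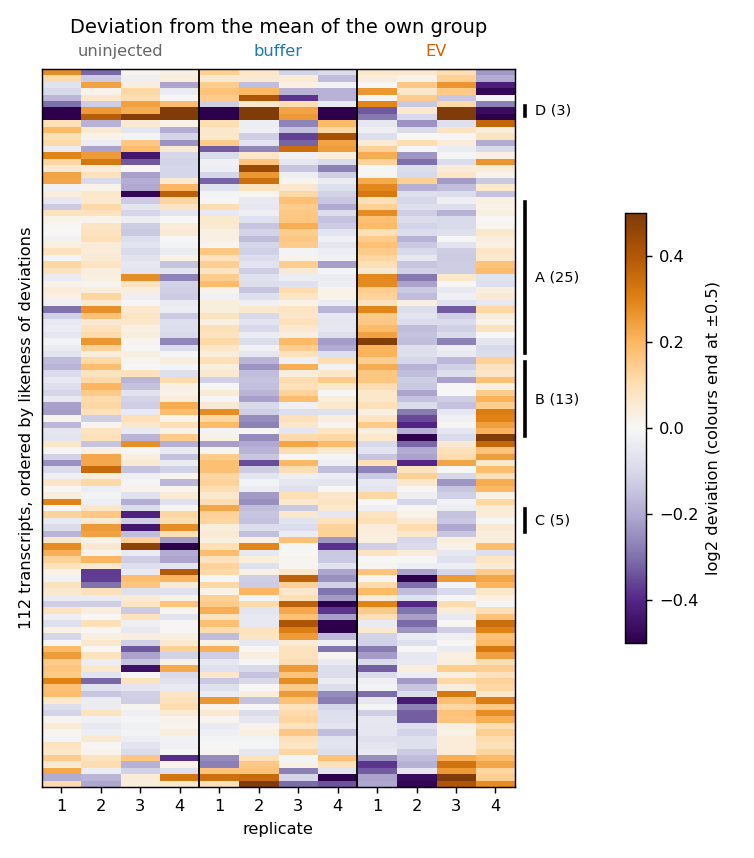
Deviation of log2(CPM + 0.1) from the mean of the own group (colour) for the 112 members (rows, ordered by likeness) in the 12 libraries (columns); bars mark groups A to D with their numbers of members. Group A is orange in EV-injected replicate 1 and purple in EV-injected replicate 2, and group D reverses between libraries of the same group.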

How the data were processed

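The authors deposited whole-number read counts per transcript for each of 2 sequencing runs and for both together, with transcript lengths, per the file headers. The submitters' processing notes name Bowtie2 2.3.1, Subread 1.6.3, featureCounts, FastQC 0.11.5 and edgeR 4.0.16, and the series' design text adds BBDuk. The authors also deposited log2 fold changes and false discovery rates (p-values adjusted for multiple tests) of 3 comparisons, per the file headers. The strand setting is not given in the sources used here.

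The 24 sequencing samples are 12 libraries in 2 runs, which were summed. Sums equalled the deposited merged counts in all 344904 cells. Libraries within a group differed more (mean chi-square per transcript 4.33 to 18.5) than both runs of the same library (1.50 to 1.95), and each library counts as 1 sample. Per the labels, the 4 libraries of a group are biological replicates, each of pooled fragments from 1 clonal line.

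Counts were tested in R 4.3.3 with edgeR 4.0.16 (filterByExpr, TMM, quasi-likelihood F test, 1 model over 12 libraries, no covariate), which kept 21149 transcripts. All 112 members passed the filter. Standard errors come from the F statistic. The test was checked on simulated data. DESeq2 1.42.0 was an alternative. CPM values are by library total, as the rule asks, and fitted changes by TMM.

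The members were chosen with earlier results of these data known, as were the tests. Identifiers are printed by rule: in each comparison, the 2 members with the largest rise and, between EV and buffer, the 2 with the largest fall. The lists of marker genes could not be applied, since no identifier carries a name, so none has a result. The third member by ratio is described without its identifier and was chosen after its values were seen. Figures were drawn with matplotlib 3.10.9.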

Additional observations from a re-analysis of the deposited data

Results flagged for a closer look

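In groups of 4 libraries, 24 checks looked for a value far from the other 3: the set's share of counts and the CPM of the 6 named members and of the third member by ratio, in each group. Chance marks about 1 in 20, here 1.2, and 1 was marked. The third member by ratio, of 606 bases, had 1475 CPM in EV-injected replicate 3, below the 1671 to 1704 CPM of the other EV-injected libraries, and that distance made up 0.855 of the whole EV range. Over all 112 members in all groups, 19 of 336 checks were marked, where chance gives 16.8.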

How the results depend on the processing

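The set had 112 transcripts, and 303 with a minimum of 1.5-fold or 73 with 2-fold. A minimum of 2 CPM gave 97, and keeping transcripts with separate EV and buffer ranges 132. With TMM-scaled CPM it had 102, of which 99 were shared; run 1 alone gave 112 with 100 shared and the shallower run 2 alone 120 with 92 shared, and leaving out each library gave 94 to 121. The set's mean share of counts stayed within 1 SD in every alternative run, at 0.493% to 0.507%, 1.31% to 1.35% and 1.25% to 1.30% in uninjected, buffer-injected and EV-injected tails with a library left out. Members called against uninjected tails were 111 or 112 of 112 in either comparison with each library left out. Of all 21426 to 21490 transcripts tested there, 3773 to 4654 were called after buffer and 4554 to 5478 after EVs. Member medians were 1.11 to 1.16 after buffer and 1.06 to 1.11 after EVs. Between EV and buffer, the count of 0 became 4 with DESeq2, where 148 of all 21149 transcripts were called. It was 0 to 3 with a library left out, and 3 without buffer-injected replicate 2, where 24 of 21458 transcripts were called. Among these 3 was dd_Smed_v6_340_0_1, whose EV and buffer ranges overlap only through that library. The rule asked for overlap over all libraries, so this count is a description. The median ran from −0.12 to −0.05 with a library left out, and the cause of these changes was not tested. Of 160 checks of named members, 157 kept direction and call, 2 gained a call and 1 turned direction: dd_Smed_v6_681_0_1 between EV and buffer, at 0.090 without buffer-injected replicate 2 and −0.95 without EV-injected replicate 3. DESeq2 called dd_Smed_v6_10748_0_1 (adjusted p = 0.0365, with alternatives up to 0.381). The replicate block gave 112 members called after buffer, 112 after EVs and 0 between EV and buffer, with a median of −0.08. It called 4683, 5483 and 39 of all 21149 transcripts, against 4659, 5452 and 21 without the block. Deviations of same-numbered libraries correlated weakly, at −0.0202 to 0.143, with 2 of 12 pairs over 0.1. Yet 6 of 12 libraries had their best partner under their own number, and whether replicate numbers pair the libraries was not tested. Of the groups formed on deviations, those of 18 and 10 members depend on the pseudocount and 1 of 4 members had 5 without it, while groups A to D were the same without it. Members in uninjected tails rest on at least 96 counts over 4 libraries, and intervals of scarce members are wide.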
